A study of Mus musculus with 45 samples.

Results

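Simvastatin is a statin, a drug that blocks the mevalonate pathway by which cells make cholesterol, and its best known target tissue is the liver. What it changed in the kidney was measured here by comparing mice on a high-cholesterol diet plus simvastatin (HCD+Sim) with mice on the high-cholesterol diet alone (HCD). The comparison rests on 6 kidney arrays, 3 of HCD+Sim and 3 of HCD, out of 15 kidney arrays and 45 arrays in all, and was read over all 22080 genes of the deposited table. The arrays were chosen by their labels for tissue and diet, with no use of measured values.

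The mice were male C57BL/6, 7 weeks old at the start, in groups of 8. Control mice ate the AIN-93 diet. HCD mice ate the same diet with 0.5% cholesterol, and HCD+Sim mice ate that diet with simvastatin at 0.03% of the food. The groups HCD+Gl-1 and, beside it, HCD+Gl-2, used here only to place single levels, had 1% of an extract of the mushroom *Ganoderma lucidum* in the cholesterol diet, and the substrate on which the Gl-2 mushroom grew held acetylsalicylic acid. Mice of every group lost access to food and water for 8 h on day 43 and were then killed. RNA was pooled: pool A held 4 mice of a group, pool B the other 4 and pool C both pools. The 3 arrays of a group thus stand on 2 separate pools of mice. The p-values count the 3 arrays as independent, though pool C repeats the RNA of the other 2. They therefore rest on a spread that understates that between pools, can be too small, and do not measure the spread between animals. An array gives 1 log2 expression value per gene, and differences between groups are log2 fold changes, where 1 is a doubling.

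Markers of proximal tubule cells averaged at least 12.14 on every kidney array and at most 6.16 in liver and 6.31 in brain, so the tissue labels hold. Within the 2 compared groups, any pair of arrays correlated between 0.9955 and 0.9973 over all genes, and pairs of arrays from different groups correlated between 0.9947 and 0.9964. In whole kidney, fewer cells of a type and less RNA per cell cannot be told apart. The HCD arrays stood apart from the other 12 kidney arrays in the average of 24 dim probe sets for multicopy genes. These 24 were themselves chosen as lower in HCD+Sim than in HCD. The dim probe sets are described separately, after the other genes. Since HCD is the reference of the comparison, the genes that passed are, for the most part, given beside their level in Control, which uses no HCD array.

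A gene was called DE (differentially expressed) where its log2 fold change exceeded 0.7 in size and its adjusted p was 0.05 or lower, from limma with Benjamini-Hochberg adjustment over all genes. By this rule 31 genes, 0.140% of those tested, differed between HCD+Sim and HCD, 6 higher (0.0272%) and 25 lower (0.113%) with simvastatin. Outside the dim multicopy probe sets there were 7 DE genes. *BC023105*, *Pdk4*, *Cyp24a1*, *Tgtp2* and *Iigp1* were among those higher with simvastatin, and *Klk1b26* was lower. The other 24 were dim multicopy probe sets, and all 24 were lower. With the adjusted p alone and no threshold on the fold, 49 genes passed (0.222%), of which 17 lay outside the dim multicopy probe sets, 14 higher and 3 lower. On each of these 17 genes the 3 HCD+Sim arrays all lay on the same side of the 3 HCD arrays. The 17 were chosen by p-values from these same arrays, so this adds no support. Of all 22080 genes, the HCD+Sim arrays lay all above on 2210 and all below on 1480. At an unadjusted p under 0.05 there were 1366 genes, and the median log2 fold change over all genes was 0.00.

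**Figure D1:**
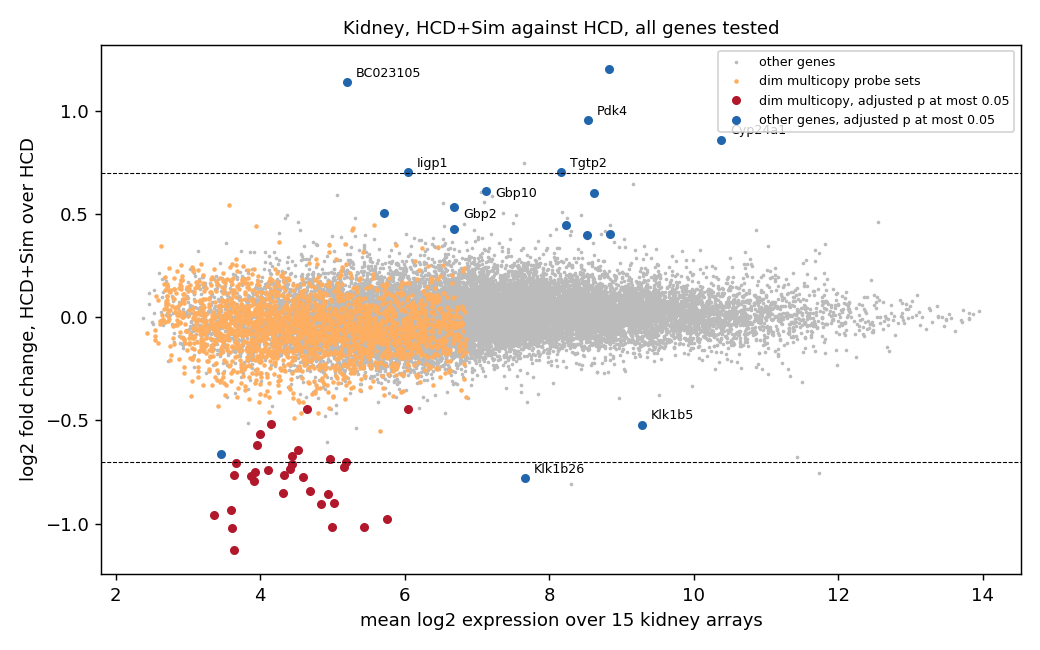
Each point is a gene of the table, placed by its mean log2 expression over the 15 kidney arrays (x) and its log2 fold change of HCD+Sim over HCD (y), with dashed lines at -0.7 and 0.7. Dim multicopy probe sets are orange, or red at an adjusted p of at most 0.05, and all 32 red points lie below 0, while 14 of the 17 blue points, the other genes at that p, lie above 0.

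The genes outside the dim probe sets fell into a few groups by known role. Guanylate-binding proteins and immunity-related GTPases, which interferons induce and which attack the vacuoles of intracellular microbes, formed the most numerous group. *Pdk4* is a fasting gene that goes with fat oxidation, under the control of the nuclear receptor PPARα. *Cyp24a1* inactivates the vitamin D hormone, and the kidney is its main site of expression. *Klk1b26* belongs to the glandular kallikreins, a cluster of closely related serine proteases.

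Of 19 interferon-inducible GTPases measured, 6 passed the adjusted p of 0.05, all of them higher (*Tgtp2*, *BC023105*, *Iigp1*, *Gbp7*, *Gbp10* and *Gbp2*), while 0.0634% of all genes passed in that direction. The fold changes of 17 of the 19 were above 0, with a median of 0.33, beside 51.3% of all genes above 0. On 13 of the 19 all HCD+Sim arrays lay above all HCD arrays, as they did on 10.0% of all genes. Like the other gene lists here, this one was written with earlier results of these data known. Its counts are therefore no independent support. For each of the 6 except *Gbp7*, the HCD+Sim arrays were the 3 highest of all 15 kidney arrays. The 6 were chosen by p-values from the compared arrays, so this rank is partly set by that choice. With each array of the compared groups left out in turn, 4 to 6 of the 19 passed, the fewest without array A of HCD+Sim, and the median was 0.30 to 0.39.

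A short sequence, the core of the interferon-stimulated response element, lies in front of many genes of this family, where transcription factors that carry the interferon signal bind. Promoters are shown for *Tgtp2*, *Gbp2* and *Gbp7*, the GTPases that passed the test and have a promoter entry in RefSeq (build GRCm38.p6). Each is 300 bases long, most of them before the start of the transcript, and runs 5′ to 3′ on the strand of the gene, with matches to the letters GAAANNGAAA, on either strand, in capitals. *Tgtp2* is at chr11:49064163-49064462 on the minus strand, *Gbp2* at chr3:142620413-142620712 and *Gbp7* at chr3:142530086-142530385, both on the plus strand.
Tgtp2: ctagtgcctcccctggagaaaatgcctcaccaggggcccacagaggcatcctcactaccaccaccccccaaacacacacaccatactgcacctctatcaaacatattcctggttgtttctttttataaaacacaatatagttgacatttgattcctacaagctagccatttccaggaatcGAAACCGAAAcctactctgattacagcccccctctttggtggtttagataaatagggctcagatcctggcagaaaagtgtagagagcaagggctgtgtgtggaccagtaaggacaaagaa
Gbp2: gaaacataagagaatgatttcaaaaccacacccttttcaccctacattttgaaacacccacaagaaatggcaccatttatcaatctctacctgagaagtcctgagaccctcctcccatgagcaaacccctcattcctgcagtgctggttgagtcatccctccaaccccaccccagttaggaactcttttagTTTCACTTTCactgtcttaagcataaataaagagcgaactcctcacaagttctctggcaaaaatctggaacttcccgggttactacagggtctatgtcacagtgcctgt
Gbp7: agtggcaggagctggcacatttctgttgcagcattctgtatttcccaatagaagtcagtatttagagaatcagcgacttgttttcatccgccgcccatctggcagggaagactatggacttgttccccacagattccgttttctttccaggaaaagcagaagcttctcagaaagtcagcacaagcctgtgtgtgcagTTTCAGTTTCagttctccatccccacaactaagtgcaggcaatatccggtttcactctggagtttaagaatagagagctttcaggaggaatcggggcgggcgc
The match starts 70 bases before the start in *Tgtp2*, 59 in *Gbp2* and 53 in *Gbp7*, on the strand of the gene in *Tgtp2* and on the opposite strand in the other two. Of the 19 GTPases, 9 had a promoter entry, and 8 of these 9 held a match. The list was made of genes known to be induced by interferons. This share therefore describes the list and not the response to simvastatin. The 8 also include *Gbp2b*, *Gbp3*, *Gbp5*, *Igtp* and *Irgm1*, which did not pass. *Gbp2b* had the lowest log2 fold change of the list (-0.19). Of the 43 other interferon-stimulated genes, 30 had an entry and 12 held a match. Of the 17 genes at the adjusted p outside the dim multicopy probe sets, 10 had an entry. Only the 3 shown held a match. Over all genes of the table with an entry the share was 3.94% (613 of 15574), and none of the 33 promoters of the fat oxidation genes below and 2 of the 16 of the cholesterol synthesis genes held one. A match describes the letters of a window, not a bound site. *Iigp1*, *BC023105* and *Gbp10* had no entry.

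*Tgtp2*, an interferon-inducible GTPase of the immunity-related family, read 8.13, 8.04 and 8.03 on HCD arrays A, B and C. On HCD+Sim arrays A, B and C it read 8.72, 8.77 and 8.82. The groups were far apart beside their own spread, and Control (7.95, 8.04 and 7.96) lay at the level of HCD. The log2 fold change over HCD was 0.70 (standard error 0.09, limma adjusted p 8.12e-06) and over Control 0.79 (adjusted p 1.13e-05). *Tgtp1*, a near-identical neighbour on chromosome 11, has no row in the table, so that the signal may belong to either copy or to both.

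*Iigp1*, an immunity-related GTPase that coats parasite vacuoles, read 6.14, 5.85 and 6.00 in HCD and 6.67, 6.76 and 6.67 in HCD+Sim. Control was a little below HCD, at 5.73, 5.75 and 5.82. The log2 fold change was 0.70 over HCD (standard error 0.12, adjusted p 0.000415) and 0.93 over Control (adjusted p 1.22e-05). *BC023105* is annotated by RefSeq as a pseudogene, 1 gene away from *Iigp1* on chromosome 18, and whether its probes also read that relative is not known here. Its HCD arrays read 5.37, 5.07 and 4.74 and its HCD+Sim arrays 6.39, 6.26 and 5.95, with Control at 4.92, 4.94 and 4.99. This was the steepest rise among the GTPases, by 1.14 over HCD (standard error 0.17, adjusted p 7.22e-05) and 1.25 over Control (adjusted p 6.39e-05), from a low level.

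The 3 guanylate-binding proteins that passed rose by less than 0.7. *Gbp10* read 7.04, 7.07 and 6.95 in HCD and 7.69, 7.66 and 7.55 in HCD+Sim, higher by 0.61 (standard error 0.12, adjusted p 0.00457). *Gbp2* read 6.48, 6.59 and 6.64 against 7.18, 7.17 and 6.97, higher by 0.53 (standard error 0.10, adjusted p 0.00498). Over Control the log2 fold change was 0.70 for *Gbp10* (adjusted p 0.00211) and 0.56 for *Gbp2* (adjusted p 0.00929), so that for both the HCD+Sim arrays were above either reference. *Gbp7*, which lies 3 genes from *Gbp2* on chromosome 3, read 8.01, 7.96 and 8.12 against 8.54, 8.34 and 8.55 (log2 fold change 0.45, standard error 0.08, adjusted p 0.0018). Its Control arrays, at 8.18, 8.32 and 8.26, lay between the 2 groups, and the log2 fold change over Control was 0.22 (adjusted p 0.559). *Gbp2* was above an adjusted p of 0.05 without array A or B of HCD+Sim or array A of HCD, and *Gbp10* without array A of HCD+Sim or array C of HCD, the highest of these values being 0.081.

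**Figure D2:**
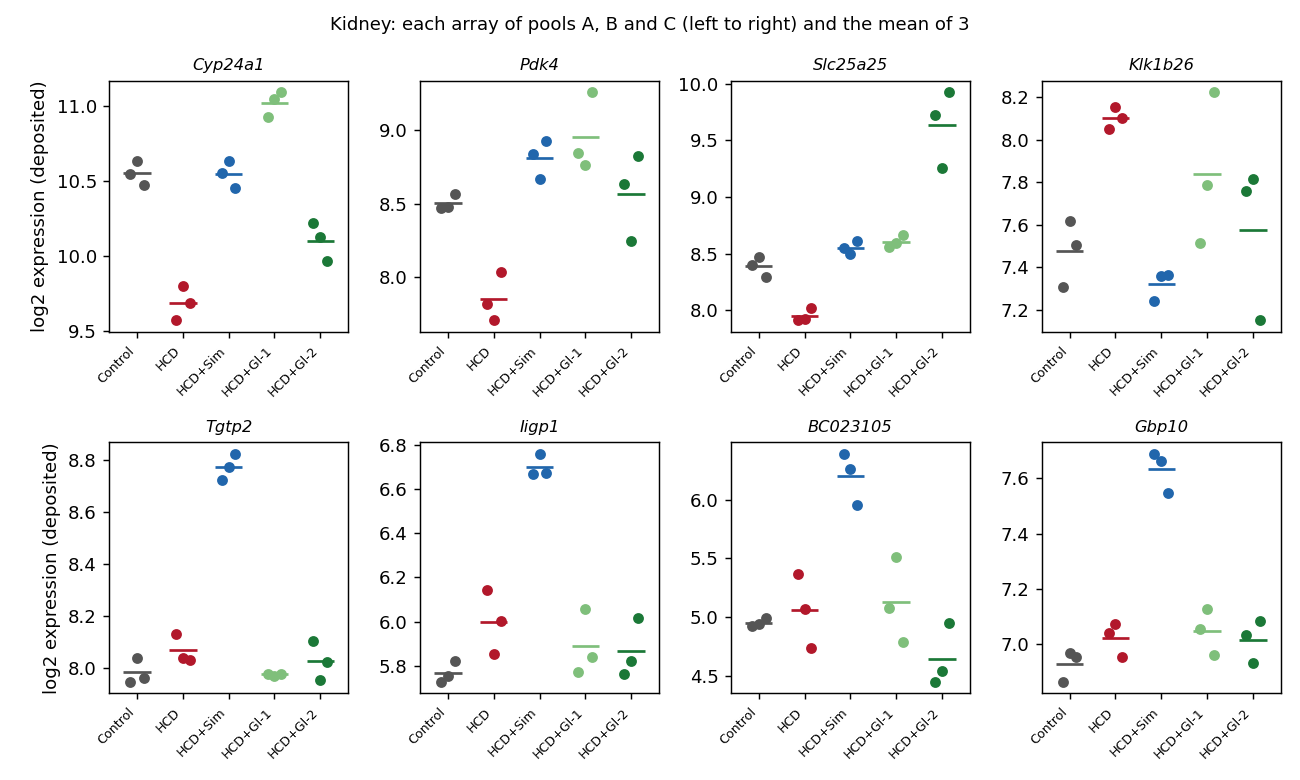
Log2 expression (y) of 8 genes on each kidney array, with the arrays of pools A, B and C from left to right within a diet group and a line at the mean of the 3. In the upper row the HCD arrays hold the 3 lowest values of all 15 for *Cyp24a1*, *Pdk4* and *Slc25a25*, and in the lower row the HCD+Sim arrays hold the 3 highest for *Tgtp2*, *Iigp1*, *BC023105* and *Gbp10*.

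Of the 13 other GTPases, none passed, with log2 fold changes from -0.19 (*Gbp2b*) to 0.59 (*Gbp11*). *Gm4951*, the GTPase of the list that counts as a dim multicopy probe set by its name and level, had 0.34 (adjusted p 0.52). The antiviral dynamin-like proteins *Mx1* and *Mx2*, which interferons of type I and III induce, had log2 fold changes of 0.03 and 0.08.

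Interferon-stimulated genes with other roles (antigen presentation, antiviral enzymes, chemokines and transcription factors of the interferon signal) leaned the same way by less. Of 43 measured, 40 had log2 fold changes above 0, with a median of 0.16 and none at an adjusted p of at most 0.05. The smallest p was that of *H2-Ab1*, an MHC class II chain, which read 9.81, 9.88 and 9.73 in HCD and 10.11, 10.10 and 10.18 in HCD+Sim (log2 fold change 0.32, adjusted p 0.115). *Irf1*, a transcription factor that interferons induce, was at 0.22 on the log2 scale (adjusted p 0.738). Over Control, 37 of the 43 were above 0, with a median of 0.12. The interferons, their receptors and kinases (9 genes) had a median of 0.06 and none passed. *Ifng* and *Ifnb1*, which encode interferons themselves, had 0.02 and -0.03, and the smallest p was that of the receptor kinase gene *Jak2* (0.17, adjusted p 0.685).

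**Figure D3:**
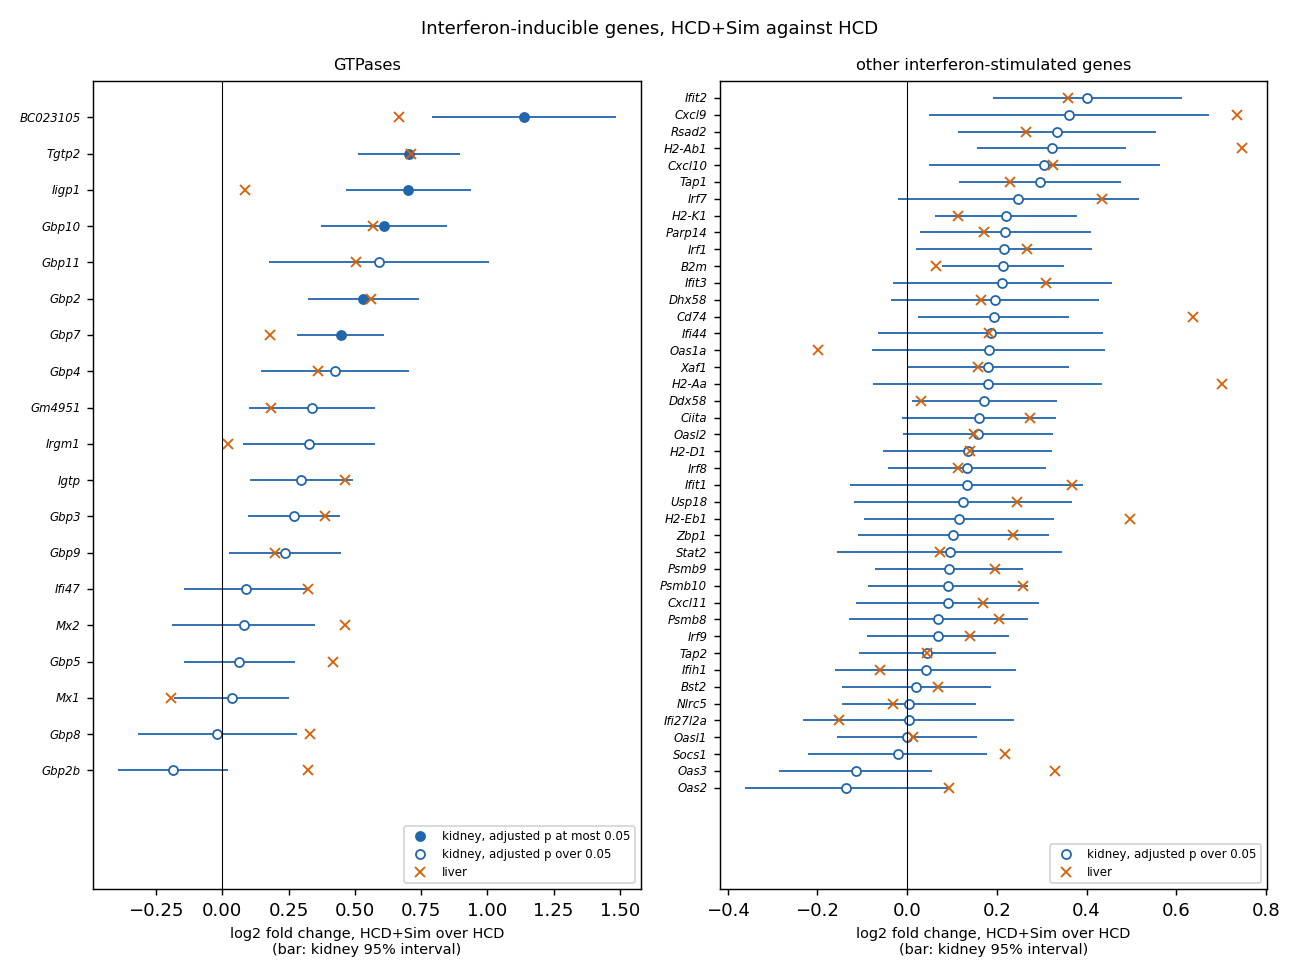
Log2 fold change of HCD+Sim over HCD (x) for each interferon-inducible GTPase (left, 19 genes) and each other interferon-stimulated gene (right), with circles and bars for the kidney value and its 95% interval and crosses for the liver value without an interval. The 6 filled circles, all to the right of 0, are at an adjusted p of at most 0.05, and the kidney values of 2 GTPases and 3 other genes lie to the left of 0.

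Immune cells were checked by their markers beside these genes. No marker of macrophages (6 measured), T and NK cells (7), B cells (5) or neutrophils (4) passed the test. Their median log2 fold changes were 0.06, 0.02, 0.00 and 0.00. The neutrophil markers ranged from -0.54 to 0.09, with 0.159 as their smallest limma adjusted p. The summed linear level of the macrophage markers was 1208 to 1286 on the HCD arrays and 1228 to 1320 on the HCD+Sim arrays, and that of the T and NK cell markers 377 to 392 and 358 to 405, so that the groups overlapped.

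Among 18 lists of cell type markers none had a member at the adjusted p, but the summed levels of 5 did not overlap between the groups. Of all 22080 single genes, 2210 were higher and 1480 lower without overlap. A share for sums over lists of any other genes was not computed, so the 5 are given as values only. Endothelial cell markers, 5 of 5 above 0 (median 0.13), summed to 2934 to 2988 in HCD and 3223 to 3320 in HCD+Sim. Podocyte markers, 5 of 5 above 0 (median 0.12), summed to 1662 to 1745 and 1808 to 1954. Markers of the collecting duct principal cell and of liver were also higher in sum, and those of skeletal muscle lower, with medians of 0.16, 0.11 and -0.16. The part of these differences in the interferon-inducible genes was not tested.

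The remaining genes at the adjusted p include 2 of immune or cell death function. *Dnase1l3*, a secreted nuclease that digests the DNA of dying cells, read 5.63, 5.51 and 5.51 in HCD and 6.03, 6.22 and 5.90 in HCD+Sim (log2 fold change 0.50, standard error 0.09, adjusted p 0.00196). Its Control arrays read 5.64, 5.43 and 5.72, and the log2 fold change over Control was 0.46 (adjusted p 0.0246). Without array B of HCD+Sim its adjusted p against HCD was 0.0790. *H2-Q8*, a non-classical MHC class I gene of a family of close copies, had 0.40 (adjusted p 0.0405). It is named, as are *Jarid2*, a partner of the Polycomb complex that silences genes (0.40, adjusted p 0.0167), and the long non-coding RNA *Mir99ahg* (0.43, adjusted p 0.0211), after their values were seen. Their HCD+Sim arrays lay above those of HCD and of Control, and they were not recomputed with arrays left out.

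*Pdk4* showed another pattern, low in HCD and above Control on every HCD+Sim array. *Pdk4*, a kinase that shuts pyruvate dehydrogenase and so spares glucose when fat is burned, read 7.82, 7.71 and 8.04 in HCD and 8.84, 8.67 and 8.92 in HCD+Sim. The groups did not overlap, and the log2 fold change was 0.95 (standard error 0.17, adjusted p 0.0018). Control read 8.47, 8.48 and 8.56, so that HCD+Sim was above it by 0.30 (95% interval -0.05 to 0.65, adjusted p 0.878). The other 6 genes of pyruvate dehydrogenase and its kinases and phosphatases lay between -0.06 and 0.12 and none passed. *Slc25a25*, a mitochondrial carrier of ATP and phosphate, had the same order of groups. Its HCD arrays read 7.91, 7.92 and 8.02, its HCD+Sim arrays 8.55, 8.50 and 8.61 and its Control arrays 8.40, 8.47 and 8.29 (log2 fold change over HCD 0.60, standard error 0.13, adjusted p 0.0299). Each array of the compared groups left out in turn moved its adjusted p above 0.05, up to 0.159.

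Over 43 genes of ketone body synthesis, fatty acid oxidation and PPARα targets, 36 had log2 fold changes above 0, with a median of 0.11. *Pdk4* was among the 2 that passed, both higher, beside 0.0634% of all genes in that direction. Peroxisomal and mitochondrial members such as *Acaa1b* (0.30), *Slc25a20*, the carnitine carrier (0.29), and *Ehhadh* (0.26) had adjusted p-values of 0.598, 0.465 and 0.720, and *Angptl4*, an inhibitor of lipoprotein lipase, had 0.38 (adjusted p 0.52). *Cpt1a*, which admits fatty acids to mitochondria, had 0.13 (adjusted p 0.86), and *Ppara* itself 0.17 (adjusted p 0.89). Against Control the same 43 genes had a median of 0.00 in HCD+Sim, with 23 above 0, and a median of -0.12 in HCD. These comparisons share arrays with the first and are given side by side only.

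*Cyp24a1* had the lowest adjusted p among the genes outside the dim multicopy probe sets. It read 9.57, 9.80 and 9.68 in HCD and 10.55, 10.63 and 10.46 in HCD+Sim (log2 fold change 0.86, standard error 0.10, adjusted p 1.48e-06). Control read 10.55, 10.63 and 10.48, within 0.02 of HCD+Sim pool by pool, and the difference from Control was -0.01 (95% interval -0.22 to 0.20). The kidney arrays of HCD+Gl-1 read 10.92, 11.05 and 11.09 and those of HCD+Gl-2 10.22, 10.13 and 9.97, so that all 12 arrays of the other groups were above the 3 of HCD.

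The other 21 genes of vitamin D, calcium and phosphate handling did not pass, with log2 fold changes from -0.39 to 0.30. *Cyp27b1*, which makes the active hormone, had 0.30 (adjusted p 0.755), the vitamin D receptor gene *Vdr* 0.11 (adjusted p 0.95), and *Cyp2r1* -0.14 (adjusted p 0.92). The renal phosphate carrier *Slc34a1* had 0.05 and the calcium channel *Trpv5* 0.03. The calcium-binding protein genes *Calb1* and *S100g*, known to rise with vitamin D, had -0.21 and 0.08.

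Of the 14 kallikreins of the *Klk1* cluster, 2 passed the adjusted p, both lower, beside 0.159% of all genes in that direction, and 5 of the 14 were above 0. *Klk1b26* read 8.05, 8.15 and 8.10 in HCD and 7.24, 7.36 and 7.37 in HCD+Sim, with Control at 7.31, 7.62 and 7.51. The fall was -0.78 (standard error 0.14, adjusted p 0.00172), and HCD+Sim differed from Control by -0.15 (95% interval -0.44 to 0.13). With the 15 kidney arrays alone in the fit the adjusted p of the same fold change was 0.0675. *Klk1b5* read 9.61, 9.37 and 9.25 against 8.87, 9.18 and 8.63 (log2 fold change -0.52, standard error 0.12, adjusted p 0.0325). Here Control (9.35, 9.19 and 9.47) was near HCD, and the difference was not at the adjusted p without array A or C of HCD+Sim or without array A or B of HCD. The remaining 12 had log2 fold changes from -0.44 to 0.16, and the median of all 14 was -0.03. The members are close copies of each other, so that a probe set may read more than its own gene. Glandular kallikreins are androgen-dependent in several organs of the male mouse, and the part of androgens in these values was not tested. Among 14 kidney genes known to be higher in males none passed against HCD (median -0.03), the smallest p being that of *Cyp2j13* (-0.25, adjusted p 0.657). Nor did any of 4 genes known to be higher in females, smallest p for *Slc7a12* (0.42, adjusted p 0.86). Over Control, 13 of the 14 male genes were above 0 in HCD+Sim (median 0.12) and 12 in HCD (median 0.18). The medians of the 4 female genes over Control were -0.27 in HCD+Sim and -0.42 in HCD.

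The pathway that simvastatin blocks showed no DE gene in the kidney. When sterols run low, SREBP2 is known to raise the genes of cholesterol synthesis. *Sqle*, which encodes squalene epoxidase, read 8.39, 8.50 and 8.46 against 8.18, 8.39 and 8.33 (-0.15, 95% interval -0.42 to 0.12). *Hmgcs1*, the first synthase of the pathway, read 11.09, 11.13 and 11.09 against 11.12, 11.26 and 11.16 (0.07, 95% interval -0.17 to 0.32). Neither interval reached 0.7 in either direction.

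Over 21 enzymes of the pathway the median log2 fold change was -0.03, with 9 above 0, 12 below and none at the adjusted p. The 95% intervals of all 21 lay between -0.48 and 0.44. The branches to ubiquinone and dolichol (12 genes, median 0.00, smallest p for *Pdss1* with 0.12), sterol sensing and uptake (12 genes, median -0.03, smallest p for the ubiquitin ligase gene *Mylip* with 0.17) and sterol export (10 genes, median -0.06, smallest p for *Abcg8* with -0.22) held no gene at the adjusted p. Nor did 8 genes known to rise when protein prenylation, another product of the pathway, is blocked (median 0.00, smallest p for *Klf4* with -0.20).

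**Figure D4:**
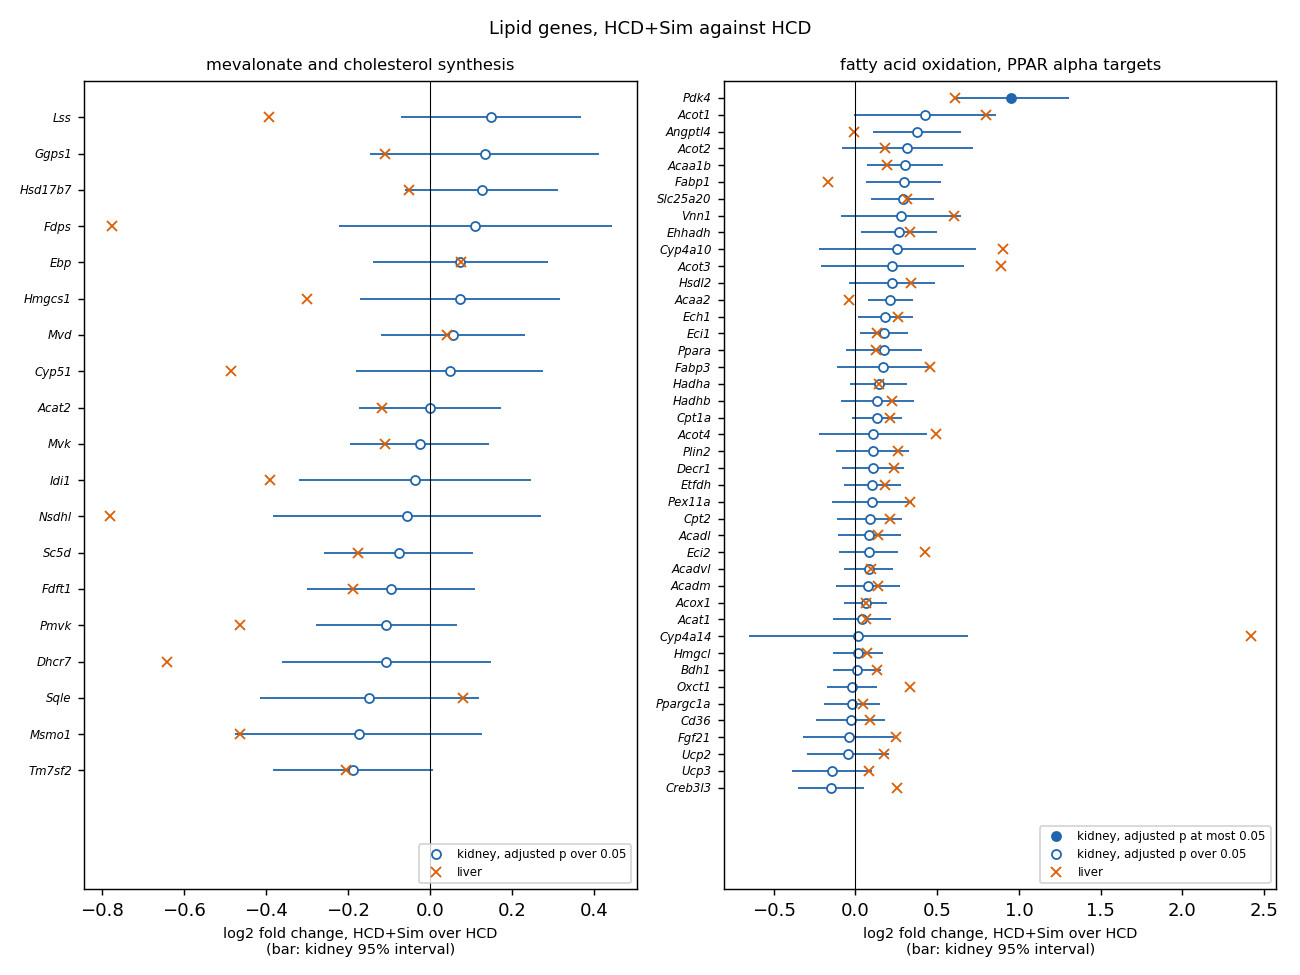
Log2 fold change of HCD+Sim over HCD (x) for enzymes of mevalonate and cholesterol synthesis (left) and genes of fatty acid oxidation and PPARα targets (right), with circles and bars for the kidney value and its 95% interval and crosses for the liver value without an interval. No kidney gene on the left is at an adjusted p of at most 0.05, and on the right *Pdk4* is.

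Further lists were measured and held no gene at the adjusted p, and for each the gene with the smallest p is named, which is not always the one that differed most. They were renal drug transporters (18 genes, median 0.07, smallest p for *Abcb1b* with 0.33), kidney injury and fibrosis (17 genes, median -0.05, smallest p for *Clu* with -0.14), steroid-reducing genes (11 genes, median -0.01, smallest p for *Nr3c2* with 0.07) and heat shock genes (11 genes, median 0.02, smallest p for *Hspe1* with -0.05). Over Control, *Clu* had -0.34 in HCD+Sim (limma adjusted p 0.0246) and -0.20 in HCD (adjusted p 0.645). Immediate early genes, which move with handling and the time to freezing, had a median of 0.11 over 27 genes, 19 above 0, with *Zfp36* at 0.45 (adjusted p 0.57). Clock genes had a median of 0.10 over 17, with *Bhlhe41* at 0.55 (adjusted p 0.483). Beside the genes above, these 2 lists are given because they follow the hour and manner of sampling, and their part in the other results was not tested.

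The dim multicopy probe sets were defined by name and level: vomeronasal and olfactory receptors, Y-linked and X-linked families of the testis, the brain snoRNAs *Snord115* and *Snord116*, and predicted genes, each with a kidney mean under the median gene (6.86). There were 2301. These genes are mostly silent in kidney, and many have near-identical copies, so that a row may read more than its own locus. Of the 2301, 66.8% had a log2 fold change below 0, against 48.7% of all genes, and their median was -0.05. At the adjusted p 32 passed, all lower, beside 0.159% of all genes in that direction, and 24 of these were DE, beside 0.113%. By family, the 24 were 14 of 904 predicted Gm genes, 6 of 144 vomeronasal receptors of family 1, 2 of 17 genes of the sex-linked testis families (*Sly* and *Srsy*), 1 of 80 LOC genes and *Snord115*. None of 1087 olfactory receptors and none of 67 vomeronasal receptors of family 2 was DE. RefSeq held 17 of the 24, of which 9 were on chromosome Y and 7 on chromosome 7. The shares of these chromosomes among all 2301 were not computed, and the name rule itself takes Y-linked families. No concentration on a chromosome is therefore read from these counts.

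*Snord115*, a snoRNA of the imprinted Prader-Willi region, had the steepest fall. It read 4.56, 4.81 and 4.49 in HCD and 3.82, 3.44 and 3.22 in HCD+Sim, with Control at 3.88, 3.57 and 3.39 (log2 fold change -1.13, standard error 0.15, adjusted p 3.92e-06). *Gm26230*, on chromosome 7, followed it closely, with 4.38 to 4.60 in HCD and 3.74, 3.55 and 3.19 in HCD+Sim (-1.02, adjusted p 8.64e-06). *Gm20815*, a Y-linked predicted gene, read 5.72, 5.74 and 5.82 against 4.84, 4.75 and 4.65 (-1.02, adjusted p 6.33e-08), with Control at 5.26, 5.28 and 5.07. *Gm21943*, also Y-linked (-1.02, adjusted p 1.9e-06), *Gm28683* (-0.98, adjusted p 1.59e-06) and *LOC102637691* (-0.96, adjusted p 5.06e-06) completed the 6 largest falls. The other 18 lay between -0.94 and -0.70. *1700040F15Rik*, a Y-linked gene outside the name rule, behaved like them, with 4.13, 4.02 and 3.74 in HCD and 3.26, 3.38 and 3.27 in HCD+Sim (-0.66, adjusted p 0.0028), at the low mean level of 3.45. Without array A of HCD its adjusted p was 0.0758.

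The 24 were chosen as higher on the HCD arrays than on the HCD+Sim arrays, so a high rank of the HCD arrays is partly set by that choice. For 21 of the 24 the HCD arrays were the 3 highest of all 15 kidney arrays. Averaged over the 24, the HCD arrays read 5.02, 5.07 and 5.03, the HCD+Sim arrays 4.25, 4.19 and 4.13, and the Control arrays 4.57, 4.54 and 4.41. HCD+Gl-1 (4.03 to 4.11) and HCD+Gl-2 (4.13 to 4.20) lay with HCD+Sim. Set against Control, all 24 were above 0 in HCD (median 0.51, 16 at the adjusted p, beside 0.131% of all genes) and all 24 below 0 in HCD+Sim (median -0.30, 2 at the adjusted p), and these values share arrays with those that chose the 24. In brain the same average was 5.11 to 5.12 in HCD, with 5.25 to 5.33 in HCD+Sim and 5.19 to 5.58 in Control, so that there the HCD arrays were the lowest of the 3 groups. The batches that were adjusted for before deposit are not given in the sources used here, so their part in these differences was not tested.

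**Figure D5:**
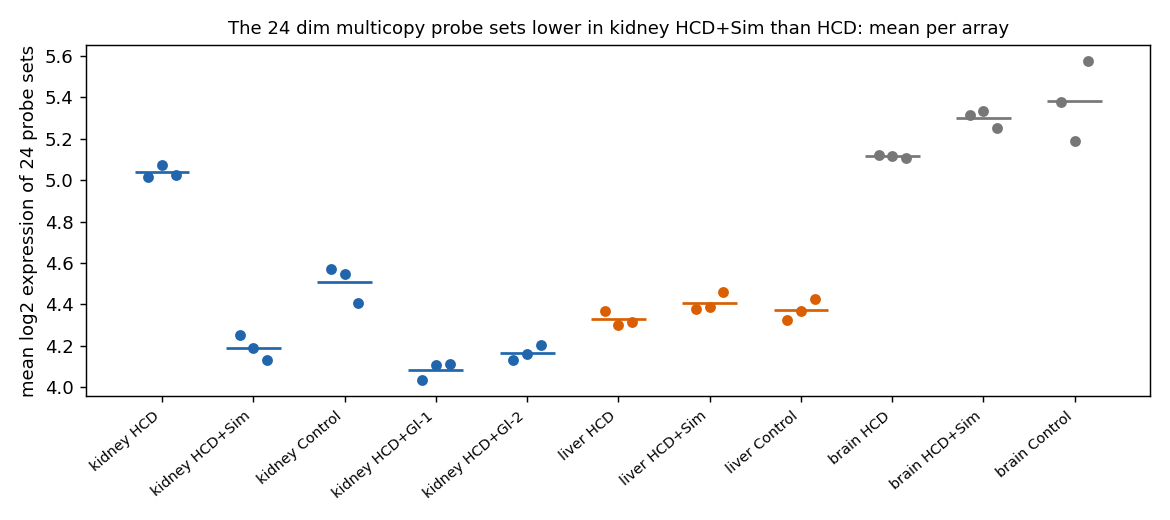
Mean log2 expression (y) of the 24 dim multicopy probe sets that were lower in kidney HCD+Sim than HCD, on each array of the groups named on the x axis, with pools A, B and C from left to right and a line at the mean of the 3. The 3 kidney HCD arrays, at 5.02 to 5.07, lie above the other 12 kidney arrays, which do not exceed 4.57, and the liver arrays lie between 4.30 and 4.46.

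The values closest to the threshold of 0.7 were *Srsy* (-0.70), *Iigp1* (0.70), *Tgtp2* (0.70) and *Vmn1r151* (-0.70) just inside it, and *Gm28671* (-0.69), *Vmn1r101* (-0.67) and *1700040F15Rik* just outside. With the 5520 genes of lowest kidney mean left out, the count of DE genes was 7, 5 higher and 2 lower. Outside the dim multicopy probe sets there were 6, 5 higher and 1 lower. This filter removed *BC023105* (kidney mean 5.20) and kept the dim multicopy probe set *Gm28683* (5.75).

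HCD+Sim against Control uses no HCD array but shares the HCD+Sim arrays with the first comparison. A gene high on those arrays can thus pass in both, and the second pass is not independent of the first. It gave 7 DE genes (0.0317%), 6 of them higher. Of these, 4 were the GTPases *BC023105*, *Iigp1*, *Tgtp2* and *Gbp10*, and at the adjusted p alone (0.0906% of all genes) 5 of the 19 GTPases passed, all higher, *Gbp2* being the fifth. *Pdk4*, *Cyp24a1* and *Klk1b26* were not among them. HCD against Control, which shares the HCD arrays with the first comparison, gave 9 DE genes (0.0408%). There *Cyp24a1* was at -0.87 on the log2 scale (adjusted p 1.08e-05), *Pdk4* -0.65 (adjusted p 0.158) and *Klk1b26* 0.63 (adjusted p 0.0529), while *Tgtp2*, *Iigp1*, *BC023105*, *Gbp2* and *Gbp10* lay between 0.03 and 0.23 with adjusted p-values of 1.00.

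The response to simvastatin in the liver of the same mice was set beside that of the kidney. In liver 18 of the 19 GTPases were above 0, with a median of 0.36. There *Tgtp2* was higher by 0.71 (adjusted p 2.18e-05), *BC023105* 0.67 (adjusted p 0.0407), *Gbp10* 0.57 (adjusted p 0.00751) and *Gbp2* 0.56 (adjusted p 0.00196), and 7 of the 19 GTPases passed the adjusted p, all higher, against 0.833% of all genes in that direction. The difference between the organs (liver minus kidney) was 0.01 for *Tgtp2* (95% interval -0.26 to 0.28), -0.04 for *Gbp10* (-0.38 to 0.30) and 0.03 for *Gbp2* (-0.27 to 0.33). *Iigp1* read 10.23, 10.28 and 10.02 in liver HCD and 10.40, 10.25 and 10.14 in liver HCD+Sim, a log2 fold change of 0.09. Its difference was -0.62 (95% interval -0.95 to -0.28, adjusted p 0.104). For *BC023105* the difference was -0.47 (-0.96 to 0.02) and for *Gbp7* -0.27 (-0.50 to -0.04). No GTPase differed between the organs at the adjusted p. Macrophage markers summed to 2186 to 2512 on the liver HCD arrays and 2532 to 2984 on the liver HCD+Sim arrays, and exocrine pancreas markers to 414 to 442 and 470 to 1171, and the part of either in the liver values was not tested.

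The organs differed for *Cyp24a1* and for fatty acid synthesis. The contrast of the 2 responses called 56 genes at a difference over 0.7 (0.254%) and 66 at the adjusted p alone (0.299%). *Cyp24a1*, dim in liver, had 0.06 there, a difference of -0.80 (adjusted p 0.00339). *Pdk4* had 0.61 in liver (adjusted p 0.0779), with liver HCD+Sim arrays at 7.18, 7.29 and 6.39, and its difference of -0.35 had a 95% interval of -0.84 to 0.15. The liver response of the fatty acid synthesis genes, 11 of 12 at the adjusted p and lower (0.263% of all genes), was not seen in the kidney, where none of the 12 passed (median 0.01), and 5 of the 12 differed between the organs at the adjusted p. *Elovl6*, an elongase of fatty acids, read 7.97, 8.18 and 8.22 in kidney HCD and 8.41, 8.33 and 8.40 in kidney HCD+Sim (0.26, adjusted p 0.86), against -0.82 in liver, a difference of -1.07 (adjusted p 0.004). Cholesterol synthesis had a median of -0.20 in liver with 5 of 21 lower at the adjusted p, but none of the 21 differed between the organs at that p. In brain no gene was DE between HCD+Sim and HCD, 4 passed the adjusted p alone and 1220 an unadjusted p of 0.05.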

How the data were processed

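RNA of liver, kidney and brain pools was hybridised to 45 Affymetrix Mouse Gene ST arrays. The authors deposited log2 values, made by RMA background correction, quantile normalization in oligo, a ComBat adjustment for batch, and selection for each gene of the probe set whose interquartile range was highest. The number of arrays limits the precision. All 45 arrays entered 1 limma 3.58.1 fit in R 4.3.3, with a mean for each of the 15 groups (residual degrees of freedom 30), and tested on simulated data. Of the 22080 rows, 13 with names turned into dates were tested but are not named. Named genes are all DE genes outside the dim multicopy probe sets, up to 10 per direction at the adjusted p, the 6 dim multicopy probe sets that changed most, for each list those at the adjusted p or else the smallest p, and statin targets such as *Sqle* and *Hmgcs1*. Some genes that this rule takes are not reported here. Other genes were named after their values were seen. The comparison, the 21 pathway and 18 marker lists and the rules were chosen with earlier results of these data known. Groups and pools come from the labels. Alternatives were a fit on kidney arrays, on the compared groups, on pools A and B, with the pool letter as a block, without dim genes, after quantile normalization within kidney, with trend and robust moderation, without a fold threshold, and with each array left out.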

Additional observations from a re-analysis of the deposited data

Results flagged for a closer look

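Among the 36 genes taken by the naming rule and reported here, 9 differed between liver and kidney in their response to simvastatin at an adjusted p of at most 0.05 (limma, liver minus kidney). Of all genes, 0.299% did so. Apart from the statin targets, the 36 were chosen by their kidney response, which is also part of this difference. The 9 are therefore no independent support for a difference between the organs. *Cyp24a1* (-0.80) and *Elovl6* (-1.07) are described above. *Dnase1l3* had log2 fold changes of 0.50 in kidney and -0.28 in liver, a difference of -0.78 (standard error 0.13, adjusted p 0.000748). The other 6 are dim multicopy probe sets that were lower in kidney HCD+Sim and between -0.13 and 0.15 in liver. The difference was 1.13 for *Gm20815* (adjusted p 1.33e-05), 1.13 for *Gm28683*, 1.0997 for *Gm21943*, 0.98 for *LOC102637691*, 1.00 for *Snord115* and 0.94 for *Gm26230*.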

How the results depend on the processing

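The 31 DE genes of kidney HCD+Sim against HCD became 7 without the dim genes and 49 without a fold threshold. The 7 outside the dim multicopy probe sets became 6 without the dim genes and 17 without that threshold. With each array left out the counts were 25 to 31 and 5 to 7. HCD+Sim against Control (7) gave 4 with the compared groups only, 25 with pools A and B only, 20 without a fold threshold and 5 to 13 with each array left out (13 without Control array C). HCD against Control (9) gave 29 without a fold threshold and 8 to 9 with each array left out. The liver minus kidney difference (56) gave 114 with pools A and B only and 37 to 88 with each array left out, 88 without liver HCD+Sim array C and 37 without kidney HCD+Sim array A. The cause of these changes was not tested, apart from the fewer or more genes that a filter or threshold admits. With the pool letter as a block the counts were 31, 7, 7, 10 and 59. The letter does not pair the samples, since the deviations of HCD and HCD+Sim arrays of the same letter correlated at 0.09, -0.14 and 0.06. None of the 36 genes that the naming rule took and that are reported here changed direction. *Klk1b5* had adjusted p-values of 0.0629 to 0.304 under 5 of the 7 settings other than leaving out an array, *Dnase1l3* 0.105 with the compared groups only and 0.0641 with quantile normalization within kidney, and *Slc25a25* 0.0610 and 0.0728 without the dim genes and with quantile normalization. *Gbp7* had an adjusted p of 0.11 with the compared groups only, and *Gbp2* was above 0.05 with pools A and B only or quantile normalization within kidney. *Klk1b26* (adjusted p 0.0675 and 0.0668) was not DE with kidney arrays only or with quantile normalization within kidney. *Tgtp2* fell to between 0.66 and 0.69 in 5 settings and *Iigp1* to 0.67 and 0.63 without array B of HCD+Sim or of HCD, below the fold threshold but at the adjusted p.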

Other observations

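HCD+Sim against Control in kidney also called 3 genes other than the GTPases, named after their values were seen. *Srd5a2*, a steroid 5-alpha-reductase of the list of steroid-reducing genes, was higher by 0.85 (adjusted p 2.07e-05), with means of 9.30 in Control, 10.07 in HCD and 10.15 in HCD+Sim. *Hrg*, a plasma glycoprotein gene, was higher by 0.74 (adjusted p 0.0246) and the testis family gene *Ssxb5* lower by a log2 fold change of -0.74 (adjusted p 0.0393). Against HCD their log2 fold changes in HCD+Sim were 0.08, 0.12 and -0.27, with adjusted p-values of 0.979, 0.969 and 0.865.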
